A study of Mus musculus with 6 samples.

Results

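The cytosolic ribosomal protein genes encode the protein part of the ribosome that translates nuclear messenger RNA. They were taken by name: 81 of the 32285 rows of the count table carry a symbol of the form Rps, Rpl or Rplp followed by a number and, in some, a short suffix such as a, x or l1, and Rps27l was left out. The family was selected on the fold changes of p57 KO against control in these same 6 libraries, so that its counts and median are given as a description and carry no test of the family. All 81 had their gene identifier under the same symbol in release 21 of the GENCODE mouse annotation, and all 81 passed the filter on low counts. Of the members, 30 belong to the small and 51 to the large subunit, the P proteins included.

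The libraries were made from GS cells, germline stem cell cultures grown from mouse testis that keep properties of spermatogonial stem cells. The 3 p57 KO libraries came from p57 flox/flox cells given Cre recombinase by an adenovirus, and the 3 control libraries from p57 flox/flox cells. In both, Cdkn1c, which encodes the cyclin-dependent kinase inhibitor p57, is flanked by loxP sites. RNA was taken 2 days after infection and sequenced as single reads of 76 bases from stranded mRNA libraries. The labels do not state whether control cells were given an empty virus, which part of the gene Cre removes or whether each replicate was a culture of its own. The p-values cover the spread among these libraries alone, and that spread may be technical. The comparison asks which RNAs differ once p57 is targeted.

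A ribosome holds about as many different proteins as there are genes in the family, each normally present as a single copy, so that cells make the proteins in matched amounts. Their messenger RNAs begin with a terminal oligopyrimidine tract (TOP), a C followed by a run of C and T, through which the kinase complex mTORC1 and the RNA-binding protein LARP1 control their translation. Spermatogonia need high protein synthesis to proliferate, and male germ cells also use autosomal copies of X-linked ribosomal protein genes, which stand in for the parent genes when the X chromosome is silenced in meiosis.

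Total counts were 15940375 to 17893671 in p57 KO libraries and 15662833 to 16979459 in control libraries. The labels were checked on the targeted gene, and no p57 KO library overlapped the control ones: Cdkn1c had 8.89 ± 0.486 CPM (read counts scaled to a common library total, after TMM) in p57 KO and 20.7 ± 0.782 CPM in control (SD, n = 3 each). Germ cell genes were well expressed but lower in p57 KO: the summed level of 5 markers was 1770 to 1851 CPM in p57 KO libraries and 1998 to 2072 CPM in control libraries. Of these Dazl (log2 fold change -0.25, adjusted p = 1.62e-05 in edgeR) and Mael (-0.10, adjusted p = 0.0309 in edgeR) fell, and the other 3, among them the RNA helicase gene Ddx4, were not called. Markers of other cell types were detected as well. All 18 markers of fibroblasts and feeder cells had positive fold changes (median log2 fold change 1.46), but 5 were called higher in edgeR and 13 were not called. Over all tested genes, 11.6% were called each way. For 16 of the 18 every p57 KO library lay above every control library, beside 19.5% of all tested genes. The summed level of the 18 was 1433 to 2839 CPM in p57 KO libraries against 903.1 to 1171 CPM in control libraries. Summed markers of undifferentiated spermatogonia were 2764 to 2934 CPM in p57 KO and 3234 to 3318 CPM in control, and 10 of these 12 genes fell. Summed Sertoli and endothelial markers lay between 17.5 and 30.5 CPM, and summed Leydig and spermatid markers below 4 CPM, in every library, and the groups overlapped in each of these sums. Summed macrophage markers were low and did not overlap, at 15.85 to 18.75 CPM in p57 KO and 12.07 to 13.29 CPM in control. Nearly all of that sum was Cd68, which rose (log2 fold change 0.40, adjusted p = 0.0037 in edgeR), while Csf1r, Adgre1 and Ptprc had at most 6 counts in any library.

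A few sequences are shown, of start regions and of paralogs beside their parent genes. The first set is the start region of 5 members with a TOP tract at the start annotated in RefSeq (GRCm38.p6). It runs from position -20 to +20 on the transcribed strand. The paralog Rpl10l and its parent Rpl10 are shown with them and have no such tract, like most members: 48 of the 61 with a RefSeq promoter lack it. Capitals mark the unbroken run of pyrimidines that covers the annotated first base.
Rpl35 (chr2:39005112-39005151, minus strand): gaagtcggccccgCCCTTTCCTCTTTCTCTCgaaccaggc
Rpl14 (chr9:120571497-120571536, plus strand): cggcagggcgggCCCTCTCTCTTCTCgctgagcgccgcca
Rpl28 (chr7:4792945-4792984, plus strand): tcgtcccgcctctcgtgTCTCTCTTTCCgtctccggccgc
Rps18 (chr17:33955646-33955685, minus strand): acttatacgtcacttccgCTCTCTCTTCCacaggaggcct
Rps6 (chr4:86857348-86857387, minus strand): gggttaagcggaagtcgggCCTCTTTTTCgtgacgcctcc
Rpl10l (chr12:66284382-66284421, minus strand): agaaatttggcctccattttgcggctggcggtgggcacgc
Rpl10 (chrX:74270796-74270835, plus strand): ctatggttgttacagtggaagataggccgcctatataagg

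The second set is the coding sequence of a parent and its paralog, from GENCODE transcripts of the mm10 build, because the count of each depends on how well reads tell them apart. Rpl10l (chr12:66283379-66284401, minus strand) and Rpl10 (chrX:74270812-74273135, plus strand) differ at 98 of 642 coding bases, an identity of 84.7%, and 25 of these differences lie in the first 150 bases. For this pair only the first 150 coding bases are printed, and the positions given are those of the whole gene. Capitals mark the bases that differ between the pair.
Rpl10l: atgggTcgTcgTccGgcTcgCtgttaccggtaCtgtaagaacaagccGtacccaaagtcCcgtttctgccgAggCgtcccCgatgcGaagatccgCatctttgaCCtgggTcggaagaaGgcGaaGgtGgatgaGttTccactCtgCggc
Rpl10: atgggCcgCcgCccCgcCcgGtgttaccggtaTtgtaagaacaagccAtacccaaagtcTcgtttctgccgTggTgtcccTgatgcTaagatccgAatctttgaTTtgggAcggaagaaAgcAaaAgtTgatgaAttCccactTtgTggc
Rpl39l (chr16:10170226-10174911, plus strand) and Rpl39 (chrX:37082520-37085402, minus strand) differ at 23 of 153 coding bases, an identity of 85%.
Rpl39l: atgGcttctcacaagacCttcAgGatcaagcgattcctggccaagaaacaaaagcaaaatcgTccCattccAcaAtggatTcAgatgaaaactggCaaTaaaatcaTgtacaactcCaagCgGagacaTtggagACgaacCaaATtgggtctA
Rpl39: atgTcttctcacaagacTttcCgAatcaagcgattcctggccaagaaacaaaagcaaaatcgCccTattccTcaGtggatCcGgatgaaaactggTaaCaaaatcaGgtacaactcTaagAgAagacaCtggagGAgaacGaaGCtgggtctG
The longest stretch without a difference is 23 bases in the Rpl10 pair and 38 bases in the Rpl39 pair, each shorter than a read of 76 bases.

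Ribosomal protein RNA took up a larger share of the library after p57 was targeted. The 81 genes held 3.665%, 3.627% and 3.611% of all counts in p57 KO libraries 1 to 3, against 3.348%, 3.351% and 3.274% in control libraries 1 to 3. Every p57 KO library lay above every control library, and the gap exceeded the spread within either group. The mean share was 3.63% ± 0.0277 in p57 KO and 3.32% ± 0.0436 in control (SD, n = 3 each), a difference of 0.31 percentage points and a ratio of 1.09. Both subunits had a similar ratio: small-subunit genes made up 1.42% ± 0.0106 of counts in p57 KO and 1.29% ± 0.0187 in control, and large-subunit genes 2.22% ± 0.0179 in p57 KO and 2.03% ± 0.0259 in control (SD, n = 3 each). The share of mitochondrially encoded RNA, another abundant group, was 3.81% ± 0.0841 in p57 KO and 3.799% ± 0.0572 in control, with a difference of 0.012 points that lies within the spread of either group. In bulk RNA, fewer cells of a type and less RNA per cell cannot be told apart. The summed fibroblast, macrophage, spermatogonia and germ cell markers also separated the groups, and their part in the ribosomal protein share was not tested beyond the model with a fibroblast score, given with its values further on.

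**Figure D1:**
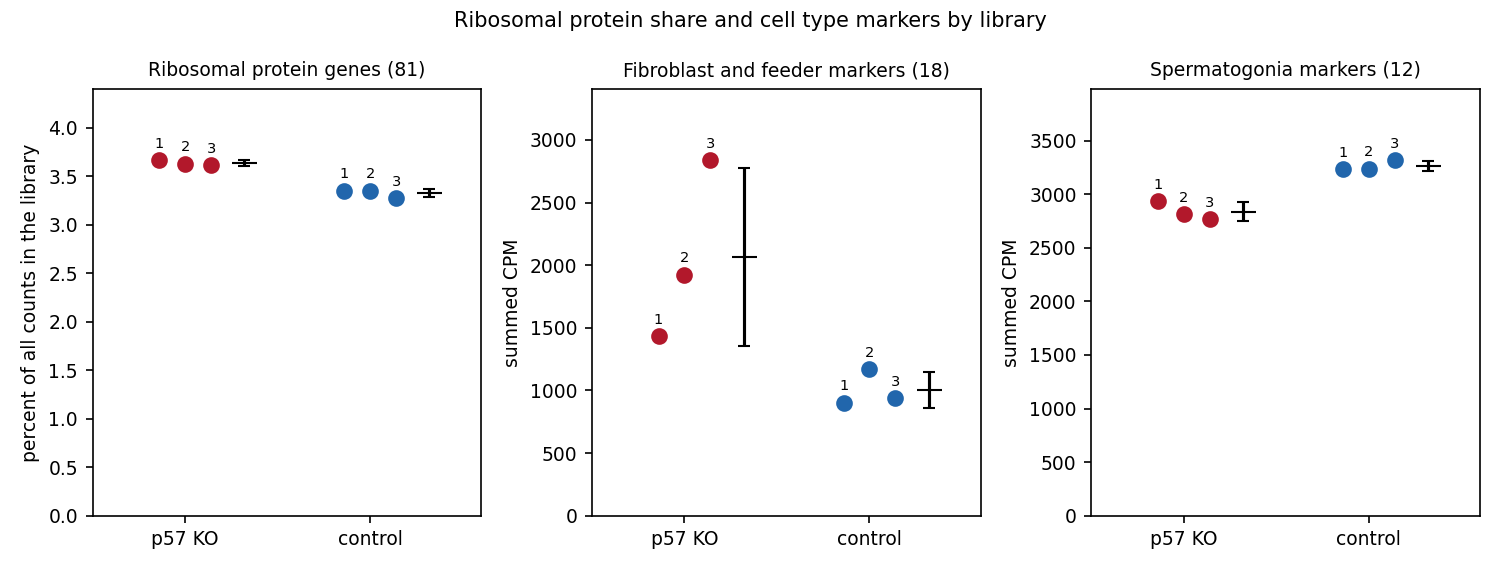
Share of all counts in the 81 ribosomal protein genes (percent), and the summed CPM of 18 fibroblast and feeder markers and of 12 spermatogonia markers, for each library; points are libraries with their replicate number and bars the mean ± SD of 3. The ribosomal protein share is 3.611% to 3.665% in p57 KO and 3.274% to 3.351% in control, while the fibroblast markers spread from 1433 to 2839 CPM within p57 KO.

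The larger share came from small differences spread over most of the family. A gene was called at an edgeR adjusted p under 0.05, and 58 of the 81 members rose, 1 fell (Rpl10l) and 22 were not called, beside a background of 11.6% of all 14814 tested genes called higher and 11.6% called lower. Fold changes were positive for 79 members, and for 45 when the libraries were scaled to the summed ribosomal protein counts themselves, which sets the family as a whole near zero. The median log2 fold change was 0.15, the middle 50 percent of members lay between 0.08 and 0.19, and the range ran from -0.21 for Rpl10l to 0.36 for Rpl36. Over all tested genes the median was -0.0019. Among tested genes of at least 50 CPM, a level class chosen after the values were seen, 10.5% were called higher, 23% lower and 33.4% either way, and the median was -0.03. Because the family was taken up with this contrast known, nothing further is read from these shares.

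**Figure D2:**
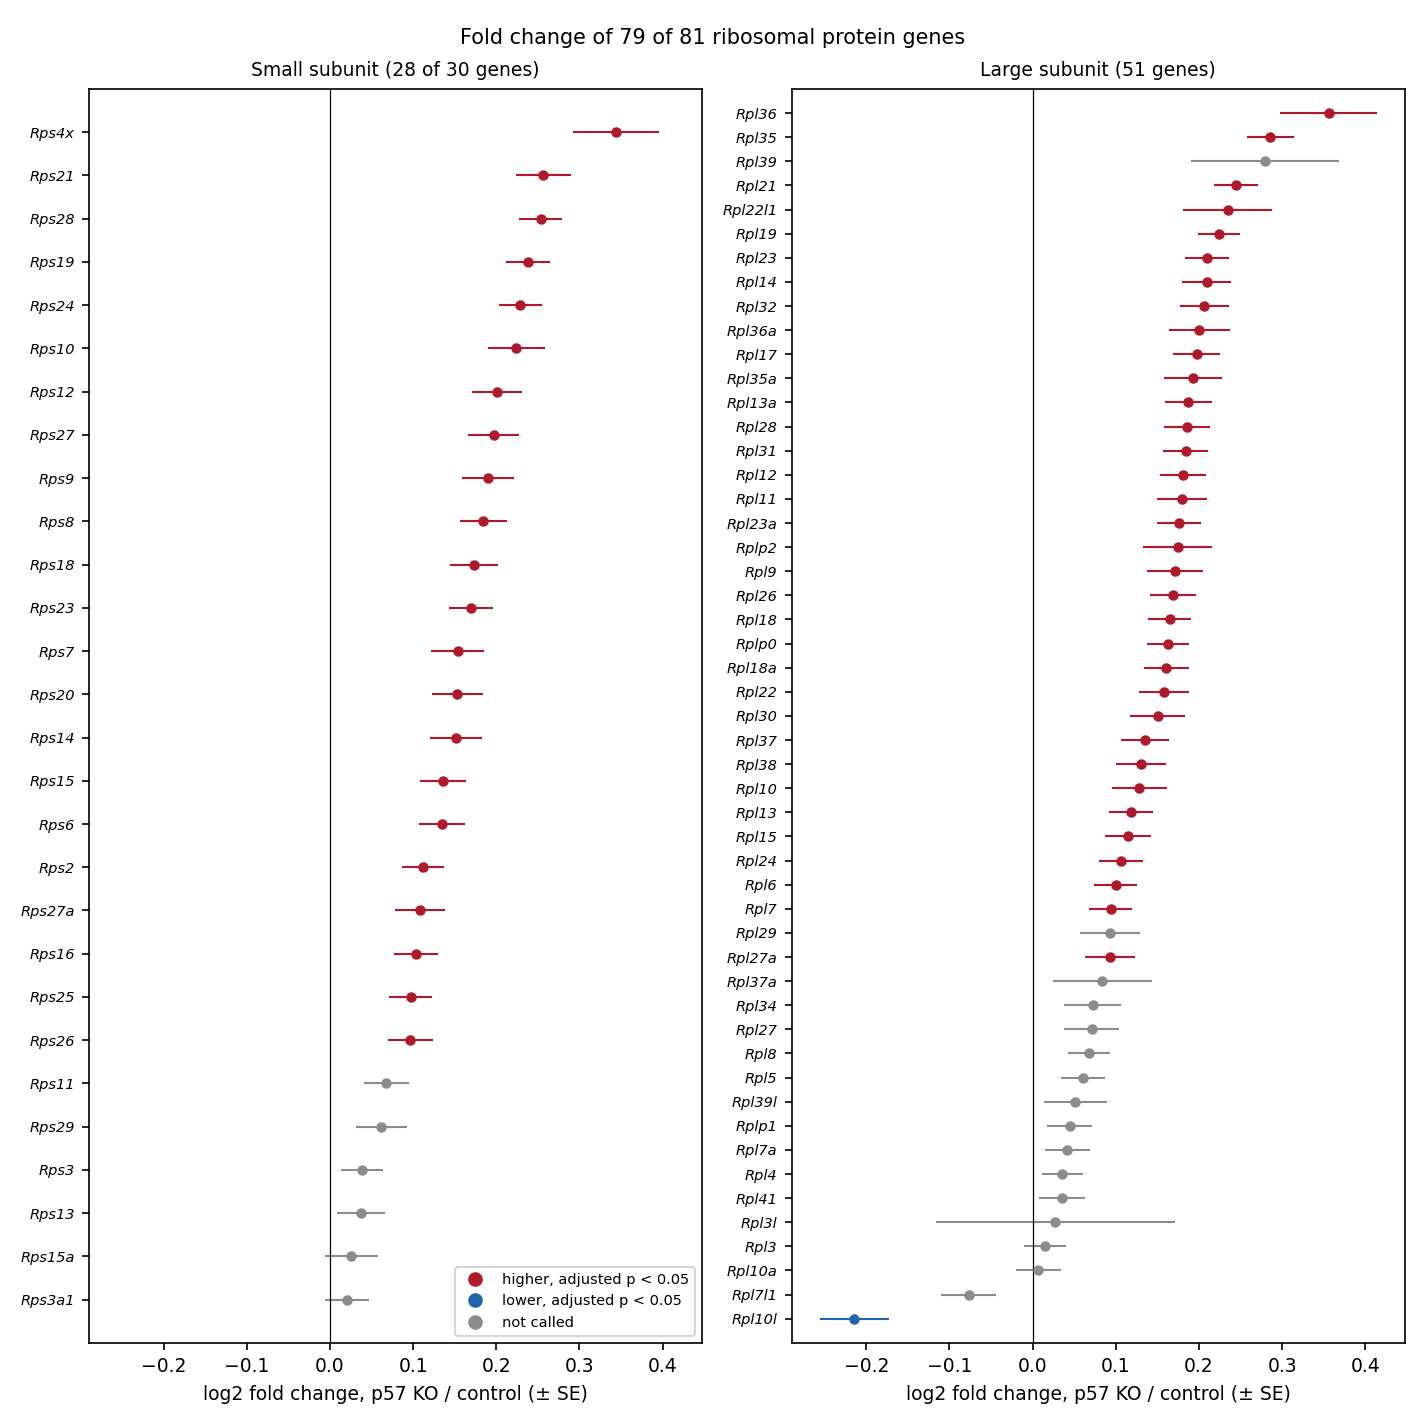
Log2 fold change (p57 KO over control) of 28 of the 30 small-subunit genes and all 51 large-subunit genes, with its SE; red marks genes called higher, blue called lower and grey not called at an edgeR adjusted p under 0.05. All 28 small-subunit genes drawn and 49 of 51 large-subunit genes lie right of zero with TMM scaling, and 45 of all 81 do when scaled to the summed ribosomal protein counts.

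Library by library, the shift was spread over most of the family, which was selected on these same fold changes, so that this is a description. In p57 KO libraries 1, 2 and 3, 79, 77 and 78 members lay above their control mean, against 55, 54 and 22 members in control libraries 1, 2 and 3. The groups did not overlap for 65 members that were higher and for 2 that were lower in p57 KO (Rpl10l and Rpl7l1), beside 19.5% and 19.7% of all tested genes. The median member stood 0.17, 0.13 and 0.14 log2 units above its control mean in p57 KO libraries 1, 2 and 3, and within 0.0179 of it in every control library. The control libraries make up that mean themselves, so that their values are centred on it by construction. Among the p57 KO libraries this median was highest in library 1, which had the lowest summed fibroblast markers of the 3, and lowest in library 2.

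**Figure D3:**
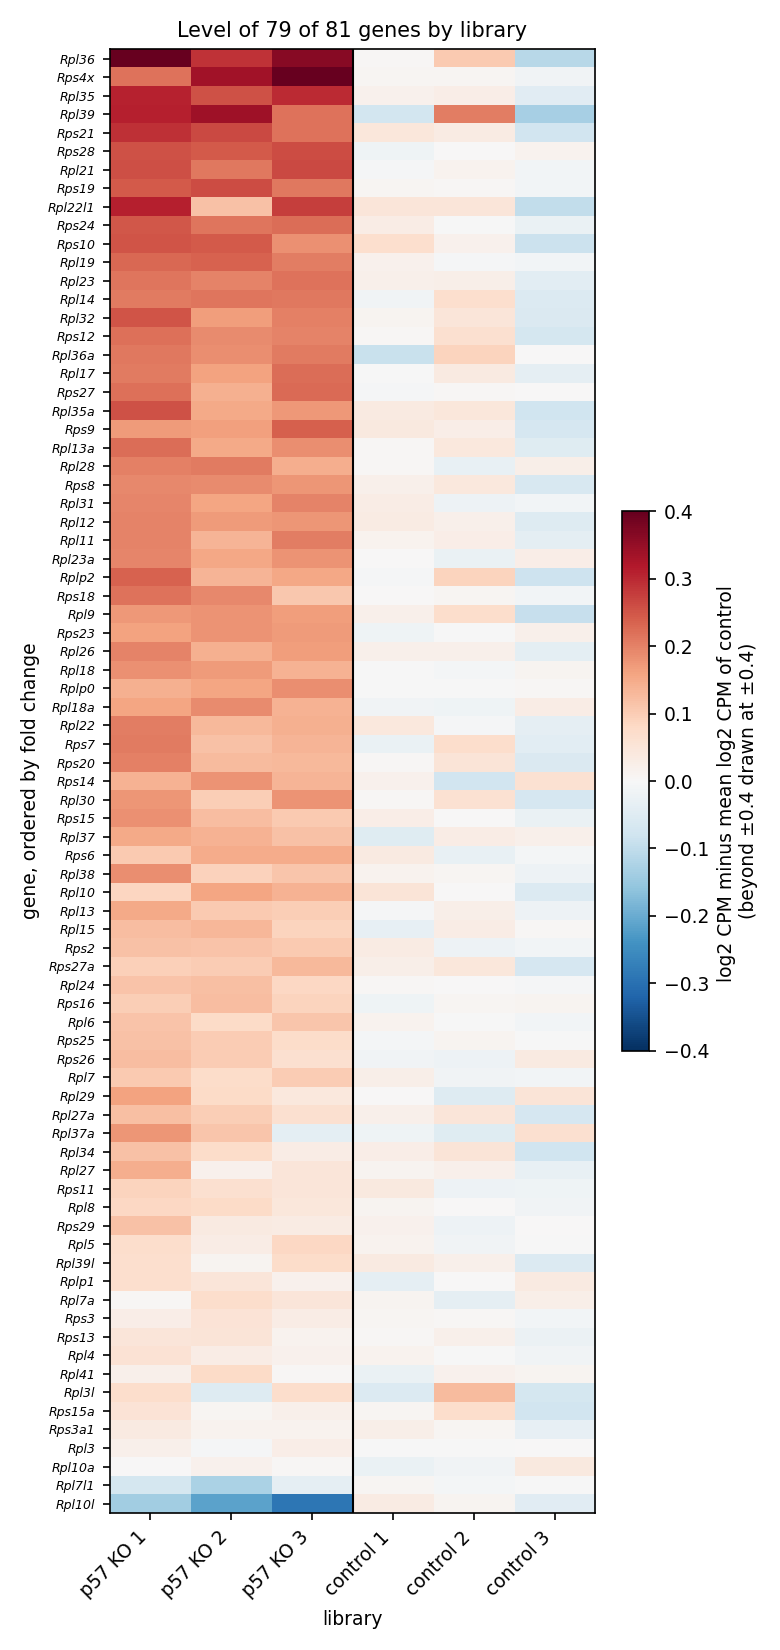
Heat map of the log2 CPM of 79 of the 81 genes in each library, minus the mean log2 CPM of the control libraries; genes run from the largest fold change (top) to the smallest (bottom). Nearly all rows are red in the 3 p57 KO columns, and Rpl10l at the bottom is blue in all 3.

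Members differed widely in level. Per kilobase of annotated transcript, the control mean ran from 3.77 CPM for Rpl3l to 1409 CPM for Rps28, with a median of 527.7 CPM per kilobase. The other 3 genes of highest level were Rplp1 (1229), Rpl41 (1159) and Rps15 (1148 CPM per kilobase in control). At the low end, after Rpl3l, stood Rpl10l (93.6), Rpl39 (93.8) and Rps4x (96 CPM per kilobase in control), whose values lay within 3 CPM per kilobase of each other and did not differ beyond the spread of Rpl39 (SD 12.1). Rps4x and Rpl39 are X-linked. These levels rest on 1 annotated transcript per gene, and Rps20 ranked low (111.9 CPM per kilobase in control) with an annotated length of 3706 bases. The fold change had little relation to level: across the 81 members, which share libraries and depth, Pearson's r with the control level per kilobase was 0.0692 and Spearman's rho 0.0635.

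Among the small-subunit genes 24 of 30 rose and 6 were not called, beside 71.6% of the whole family and 11.6% of all tested genes called higher. The median log2 fold change of the 30 was 0.15. The largest difference was that of Rps4x, the X-linked gene of the protein eS4. Rps4x had 108.7, 118.0 and 129.2 CPM in p57 KO libraries 1, 2 and 3, against 93.97, 94.04 and 92.68 CPM in control libraries 1, 2 and 3. All 3 p57 KO libraries were above every control library, and the p57 KO libraries spread more (SD 10.3 CPM in p57 KO and 0.766 CPM in control). The log2 fold change was 0.34 ± 0.05 (SE, adjusted p = 0.00038 in edgeR). Its order among the p57 KO libraries was that of the summed fibroblast markers. Among the control libraries the orders differed, with Rps4x lowest in library 3 and the markers lowest in library 1. In a model that also held the fibroblast score, the average log2 CPM of those markers, the Rps4x value was 0.12 (SE 0.07, adjusted p = 0.459 in edgeR).

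Rps21 and Rps28 followed. Rps28, a protein at the mRNA exit side of the small subunit, had 455.2, 452.9 and 457.5 CPM in p57 KO libraries 1 to 3 and 377.7, 381.9 and 385.9 CPM in control libraries 1 to 3, a log2 fold change of 0.25 ± 0.03 (SE, adjusted p = 4.02e-07 in edgeR). Its libraries lay close together within each group and far apart between groups. Rps21 had 243.3 ± 6.53 CPM in p57 KO and 203.6 ± 9.22 CPM in control (SD, n = 3 each), with a log2 fold change of 0.26 (adjusted p = 9.22e-06 in edgeR). Both kept their call with the fibroblast score in the model, Rps21 at 0.30 and Rps28 at 0.25.

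Rps6 is the small-subunit protein phosphorylated by S6 kinase downstream of mTORC1. It had 371.7, 382.8 and 383.2 CPM in p57 KO libraries 1 to 3 and 354.5, 338.5 and 343.6 CPM in control libraries 1 to 3. The groups did not overlap, with a log2 fold change of 0.13 ± 0.03 (SE, adjusted p = 0.00114 in edgeR). With the fibroblast score in the model Rps6 was not called (0.12, adjusted p = 0.239 in edgeR). Of 5 genes whose proteins line the mRNA channel, Rps2, Rps23, Rps26 and Rps28 rose and Rps3 was not called, at 0.04 (SE 0.03, adjusted p = 0.296 in edgeR). In the whole family 71.6% rose, beside 11.6% of all tested genes. Rps26 lost its call without p57 KO library 2 (adjusted p = 0.0558 in edgeR), control library 1 (0.0661) or control library 2 (0.0718). Rps26 had 0.10 and Rps2 0.11 on the log2 scale, and both were slightly below zero when scaled to the summed ribosomal protein counts. The small-subunit genes with the smallest fold changes were Rps3a1 (0.02), Rps15a (0.03) and Rps13 (0.04), none of them called.

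Among the large-subunit genes 34 of 51 rose, 1 fell and 16 were not called, beside 71.6% of the whole family and 11.6% of all tested genes called higher. The median log2 fold change of the 51 was 0.15. Rpl36 had the largest fold change of the family. It had 279.0, 254.8 and 268.0 CPM in p57 KO libraries 1, 2 and 3 and 208.9, 224.2 and 193.1 CPM in control libraries 1, 2 and 3. The groups were well apart, although control library 2 was higher than the other controls. The log2 fold change was 0.36 ± 0.06 (SE, adjusted p = 0.00472 in edgeR), and it was 0.33 (adjusted p = 0.0553 in edgeR) with the fibroblast score as a covariate. Only 29.5% of the 76-base stretches of its transcript are found in no other annotated transcript, so that its count depends on how reads with several matches were treated.

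Rpl35, which lies at the mouth of the tunnel through which the new protein leaves the ribosome, had the smallest adjusted p of the family. Its level was 411.9, 397.0 and 409.0 CPM in p57 KO libraries 1 to 3, against 336.7, 339.4 and 322.9 CPM in control libraries 1 to 3. The gap between the groups was several times the spread within them, with a log2 fold change of 0.29 ± 0.03 (SE, adjusted p = 2.72e-07 in edgeR). Of the 5 exit tunnel genes Rpl35, Rpl17 and Rpl23a rose, with 0.20 for Rpl17 and 0.18 for Rpl23a. The other 2 were not called: Rpl4 had 0.04 (adjusted p = 0.318 in edgeR) and Rpl39 0.28 (SE 0.09, adjusted p = 0.0644 in edgeR). In the whole family 71.6% rose, beside 11.6% of all tested genes.

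Rpl5 and Rpl11 form a particle with the 5S ribosomal RNA that can bind MDM2 and so raise p53 when ribosome assembly is disturbed. Rpl11 rose, with 269.7, 258.2 and 270.5 CPM in p57 KO libraries 1 to 3 and 237.0, 239.5 and 228.4 CPM in control libraries 1 to 3, and a log2 fold change of 0.18 ± 0.03 (SE, adjusted p = 0.000146 in edgeR), but was not called with the fibroblast score in the model (0.16, adjusted p = 0.127 in edgeR). Rpl5 had 585.9 ± 10.9 CPM in p57 KO and 561.8 ± 5.65 CPM in control (SD, n = 3 each), with 0.06 (SE 0.03, adjusted p = 0.0967 in edgeR). The Rpl5 libraries did not overlap between groups, yet the value missed the threshold, except with upper-quartile scaling (0.08, adjusted p = 0.0264 in edgeR).

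The P stalk recruits the elongation factors, and 3 of its 4 genes rose, beside 71.6% of the whole family and 11.6% of all tested genes. Rpl12 had a log2 fold change of 0.18, Rplp2 0.17 and Rplp0, which anchors the stalk, 0.16. Rplp2 had 0.17 without control library 1 too, but was not called then (adjusted p = 0.0603 in edgeR). Rplp0 had 644.0, 651.5 and 663.2 CPM in p57 KO libraries 1 to 3 and 582.3, 582.9 and 585.0 CPM in control libraries 1 to 3, with an edgeR adjusted p of 8.48e-05 with the group alone and 0.143 (log2 fold change 0.13) with the fibroblast score. Rplp1 overlapped between the groups, with 632.3 ± 11.3 CPM in p57 KO and 613.0 ± 15.2 CPM in control (SD, n = 3 each) and a log2 fold change of 0.04 (adjusted p = 0.252 in edgeR). The other members of small fold change in the large subunit were Rpl10a (0.0069) and Rpl3 (0.01), neither called.

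Diamond-Blackfan anemia, a human failure of red cell production, is most often caused by loss of a single copy of a ribosomal protein gene. Of the mouse counterparts of 10 of its genes 9 rose, beside 71.6% of the whole family and 11.6% of all tested genes. With 10 genes nothing is read from this. The median log2 fold change of the 10 was 0.17, and Rpl5 was not called. Rps19, the most often affected of them, had 434.1, 438.2 and 423.3 CPM in p57 KO libraries 1 to 3 and 368.0, 366.9 and 363.3 CPM in control libraries 1 to 3. Its groups were far apart, with a log2 fold change of 0.24 ± 0.03 (SE, adjusted p = 1.24e-06 in edgeR). Rps24 had 0.23, Rps10 0.22, Rpl35a 0.19, Rpl26 0.17, Rps7 0.15 and Rps26 0.10 on the log2 scale.

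The 5 paralogs did not share one pattern: 1 rose, 1 fell and 3 were not called, against 57 that rose, 0 that fell and 19 not called among the other 76 members in edgeR. All 76 had a positive fold change with TMM scaling (range 0.0069 to 0.36). Rpl10l, an intronless copy of Rpl10 that mouse spermatocytes need in meiosis, was the member that fell. It had 87.03, 82.49 and 78.42 CPM in p57 KO libraries 1, 2 and 3, against 97.91, 96.57 and 92.87 CPM in control libraries 1, 2 and 3. Each p57 KO library lay below each control library, with a log2 fold change of -0.21 ± 0.04 (SE, adjusted p = 0.000693 in edgeR).

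Its parent Rpl10 went the other way. Rpl10 had 190.5, 200.3 and 197.7 CPM in p57 KO libraries 1 to 3 and 186.1, 179.5 and 172.8 CPM in control libraries 1 to 3, a log2 fold change of 0.13 ± 0.03 (SE, adjusted p = 0.00646 in edgeR), which became -0.0038 when scaled to the summed ribosomal protein counts. The groups did not overlap, though p57 KO library 1 was close to control library 1. Rpl10 lost its call without control library 3, at 0.10 (adjusted p = 0.0609 in edgeR), and with the fibroblast score, at 0.09 (adjusted p = 0.581 in edgeR). The Rpl10l count was 45.7%, 41.2% and 39.7% of the Rpl10 count in p57 KO libraries 1 to 3, against 52.6%, 53.8% and 53.7% in control libraries 1 to 3. This ratio within a library needs no scaling between libraries and is not corrected for length. It averaged 42.2% ± 3.14 in p57 KO and 53.4% ± 0.662 in control (SD, n = 3 each).

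Over the whole coding sequence no identical run of the Rpl10 pair is as long as a read, so that their coding reads can be told apart from each other. Reads of Rpl10 match other genes, however. Of the sequence windows, 99.9% of the 76-base stretches of Rpl10l occur in no other annotated transcript, but only 8.15% of those of Rpl10, which shares stretches with 11 other genes. Among the p57 KO libraries, the ratio was lowest in library 3 and highest in library 1, the reverse of the order of the fibroblast markers. Among the control libraries the order was the same for both, with ratio and markers lowest in library 1 and highest in library 2. In the model with the fibroblast score Rpl10l had a log2 fold change of -0.0993 ± 0.08 (SE, adjusted p = 0.621 in edgeR). Of the 12 spermatogonia markers 10 fell as well, and the median log2 fold change was -0.29. The part of either marker group in the Rpl10l value was not tested further.

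Rpl7l1 behaved like Rpl10l in direction but was not called. It had 130.6, 125.6 and 133.9 CPM in p57 KO libraries 1 to 3 and 138.0, 136.6 and 137.1 CPM in control libraries 1 to 3, with a log2 fold change of -0.08 ± 0.03 (SE, adjusted p = 0.101 in edgeR). Its parent Rpl7, a large-subunit protein gene, rose by 0.09 on the log2 scale (adjusted p = 0.0111 in edgeR), with an adjusted p of 0.0534 without control library 2 and 0.0529 without control library 3. The count of Rpl7l1 was 23.3% ± 0.52 of that of Rpl7 in p57 KO and 26.2% ± 0.25 in control (SD, n = 3 each), and the groups did not overlap.

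Rpl39l, the autosomal copy of X-linked Rpl39 in male germ cells, was not called, with 99.4 ± 2.39 CPM in p57 KO and 95.9 ± 3.18 CPM in control (SD, n = 3 each) and a log2 fold change of 0.05 (adjusted p = 0.357 in edgeR). Rpl39 itself had 70.81, 72.26 and 66.32 CPM in p57 KO libraries 1 to 3 and 54.29, 65.85 and 52.03 CPM in control libraries 1 to 3. The lowest p57 KO library was barely above control library 2. Without that control library the log2 fold change of Rpl39 was 0.39 (adjusted p = 0.000128 in edgeR), and with all libraries DESeq2 gave an adjusted p of 0.00368 at 0.28. In control, Rpl39l had 174.4 and Rpl39 93.8 CPM per kilobase, so that the copy exceeded the parent. The paralog count was 142.7% ± 9.31 of the parent count in p57 KO and 168.7% ± 18.2 in control (SD, n = 3 each), and the groups overlapped.

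Rpl22l1, which in other mouse tissues is repressed by the protein of its parent Rpl22, rose together with Rpl22. Rpl22l1 had 99.34, 86.75 and 96.9 CPM in p57 KO libraries 1 to 3 and 82.75, 82.86 and 74.78 CPM in control libraries 1 to 3, a log2 fold change of 0.23 ± 0.05 (SE, adjusted p = 0.00551 in edgeR), which with the fibroblast score was 0.24 and not called (adjusted p = 0.153 in edgeR). Rpl22 had 0.16 (SE 0.03, adjusted p = 0.000519 in edgeR). The ratio of their counts overlapped between the groups, at 33.3% ± 1.8 in p57 KO and 31.5% ± 1.27 in control (SD, n = 3 each). Rpl3l, the copy used in heart and skeletal muscle, was the least expressed member, with 86, 82 and 97 counts in p57 KO libraries and 82, 96 and 77 counts in control libraries, and the groups overlapped. At this depth no difference of Rpl3l was detectable (log2 fold change 0.03, SE 0.14).

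**Figure D4:**
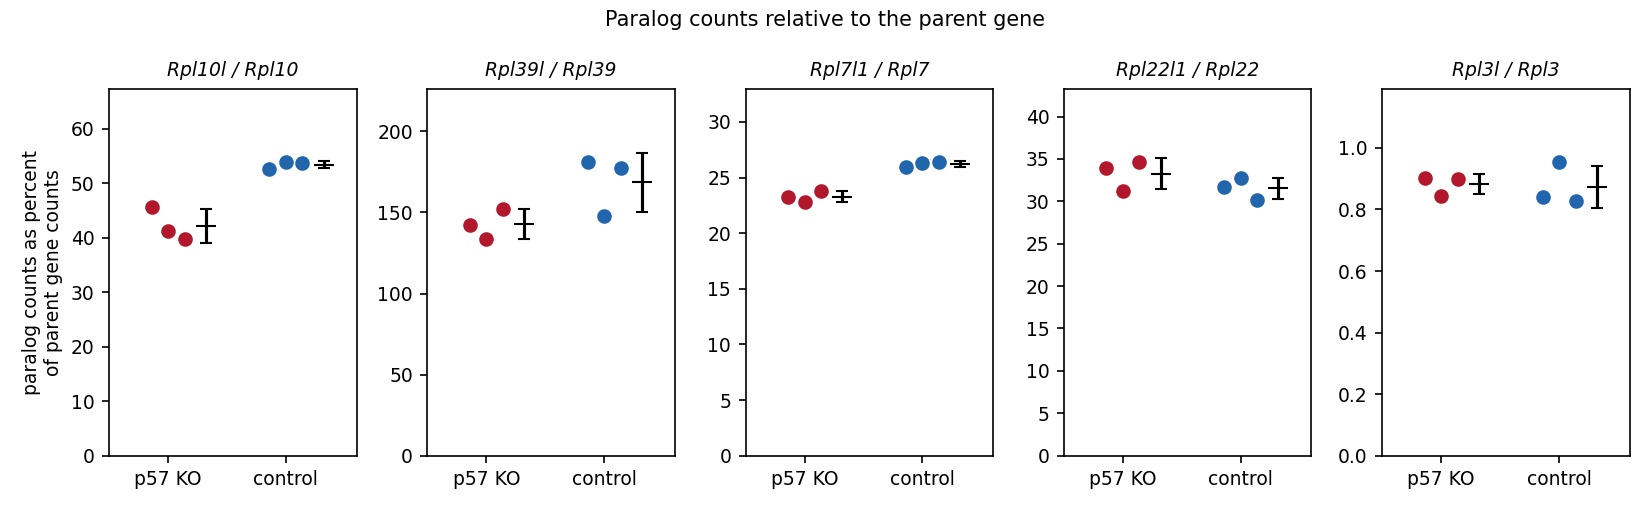
Counts of each paralog as percent of the counts of its parent gene, by library (points), with the mean ± SD of 3 libraries. The groups are separate for Rpl10l over Rpl10 (39.7% to 45.7% in p57 KO, 52.6% to 53.8% in control) and for Rpl7l1 over Rpl7, and overlap for the other 3 pairs.

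The X-linked members were Rps4x, Rpl10, Rpl36a and Rpl39. Of these 3 rose and Rpl39 was not called, and the median log2 fold change was 0.24, against 0.15 for the 77 autosomal members. With the fibroblast score in the model none of the 4 was called (adjusted p = 0.329 to 0.581 in edgeR). Their values were then 0.12 for Rps4x, 0.09 for Rpl10, 0.13 for Rpl36a and 0.20 for Rpl39, beside a median of 0.15 over all 81 members. Other X-linked genes tested were 559, of which 46 rose and 64 fell, with a median of -0.02. With 4 genes no test of X-linked against autosomal members was made.

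The members were also compared with the family as the yardstick. With each library scaled to its summed ribosomal protein counts, the median of all tested genes moved to -0.13, and a fold change is then relative to the family. On this scale 13 members were higher and 14 lower in edgeR, beside 6.64% and 41.3% of all tested genes. Rpl36 (0.22), Rps4x (0.21), Rpl35 (0.15), Rps21 (0.12) and Rps28 (0.12) led the family, and Rpl10l (-0.35), Rpl7l1 (-0.21), Rpl10a (-0.13), Rpl3 (-0.12) and Rps3a1 (-0.11) trailed it. When a difference had to exceed a fold of 1.1 to pass, 13 members were called higher and 0 lower in p57 KO in edgeR, beside 5.66% and 2.4% of all tested genes. They were Rpl36, Rps4x, Rpl35, Rps21, Rps28, Rpl21, Rps19, Rps24, Rps10, Rpl19, Rpl23, Rpl14 and Rpl32. The same 13 were higher relative to the family. This match is nearly fixed in advance and adds nothing, because scaling to the family lowers each fold change by about as much as a fold of 1.1 asks for.

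Over the whole family, the model with the fibroblast score gave the family nearly the same median with fewer calls. The score was 4.49, 5.11 and 5.64 in p57 KO libraries 1 to 3 and 3.58, 4.19 and 3.65 in control libraries 1 to 3, so that the groups did not overlap in it either. The median log2 fold change of the members was 0.15 in this model, 27 were called higher and 0 lower in edgeR, and 25 of the 27 were among the 59 called without the score. Of the 58 members that rose with the group alone, the other 33 were not called with the score, all with positive fold changes (adjusted p = 0.0542 to 0.761 in edgeR), and neither was Rpl10l. Those named here include Rps2, Rps4x, Rps6, Rps7, Rps23, Rps26, Rpl7, Rpl10, Rpl11, Rpl14, Rpl17, Rpl22l1, Rpl36, Rpl36a, Rplp0 and Rplp2. Standard errors were mostly wider with the score, so that a lost call does not by itself mean a smaller fold change. The SE of Rps6 was 0.0515 with the score and 0.0276 with the group alone, and that of Rplp0 0.0459 and 0.0254. For Rpl37a it was narrower with the score (0.0543 against 0.0595). The background in the same model was 1.53% of all tested genes called higher and 1.01% called lower. The 2 members called in this model but not without the score were Rpl29 (0.23, adjusted p = 0.0216 in edgeR) and Rpl37a (0.29, adjusted p = 0.000676 in edgeR). Rpl37a had its lowest value, 287.3 CPM, in p57 KO library 3, which had the highest summed fibroblast markers, against 333.2 and 318.4 CPM in p57 KO libraries 1 and 2 and 285.5 to 308.6 CPM in control. Without p57 KO library 3 it had 0.14 (adjusted p = 0.00265 in edgeR) with the group alone.

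**Figure D5:**
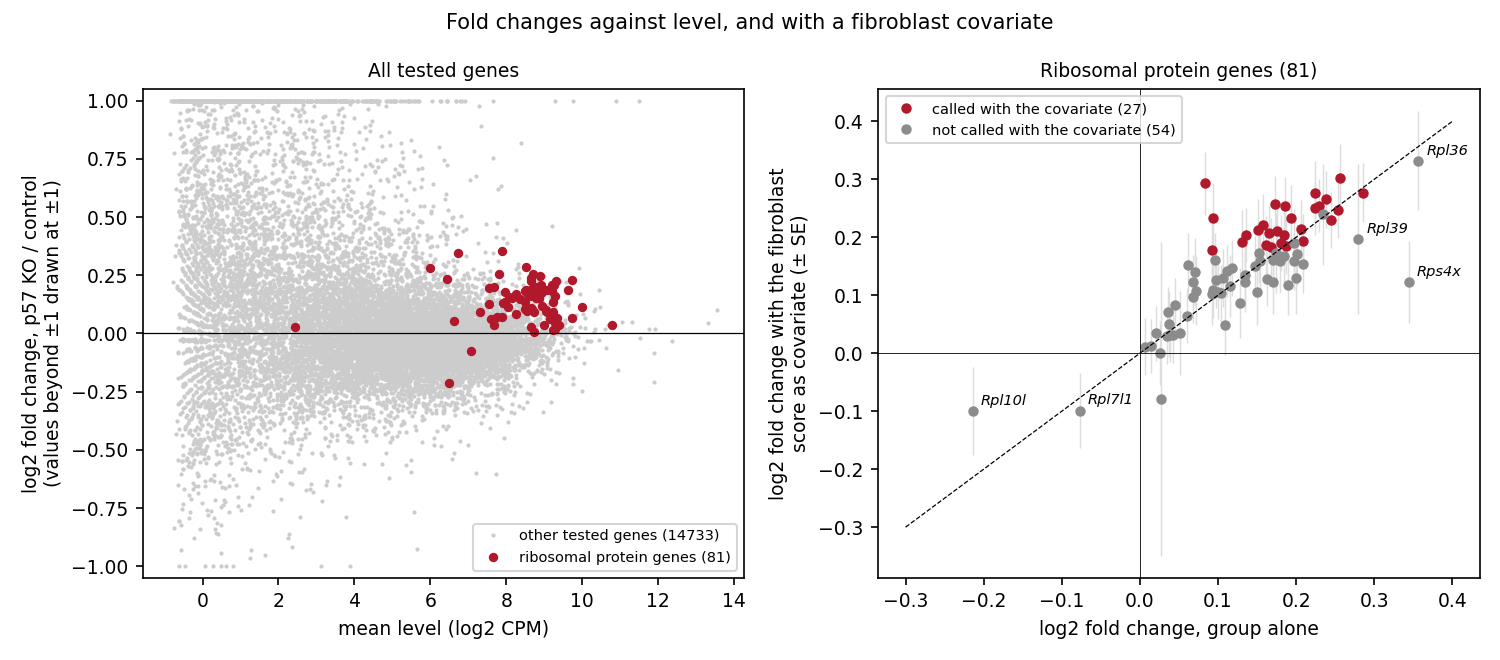
Left, log2 fold change (p57 KO over control) against mean log2 CPM for all tested genes (grey) and the 81 ribosomal protein genes (red); right, the fold change of each of the 81 in the model with the fibroblast score (± SE) against that in the model with the group alone, with the line of equality. Most points keep to the line, while Rps4x drops to 0.12 and Rpl10l moves to -0.10 with the score.

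Replicates of the family were tight. The biological coefficient of variation, edgeR's estimate of the spread between replicates beyond counting error, which borrows information across genes, had a median of 2.75% over the members (2.44% to 9.78%), against 3.07% for all tested genes of at least 50 CPM and 5.75% for all tested genes. The estimate was lowest for Rps23 and Rpl24 (2.44% and 2.49%), and high for Rpl39 (7.22%) and Rpl37a (5.05%). The highest, 9.78% for Rpl3l, belongs to a gene of 77 to 97 counts in a library and does not show an observed spread: its CPM was 5.28 ± 0.253 in p57 KO and 5.18 ± 0.406 in control (SD, n = 3 each). At this spread a difference of 6.72% of a well expressed member can pass the test, as for Rpl7 (558.7 ± 6.31 CPM in p57 KO and 523.5 ± 7.42 CPM in control, SD, n = 3 each).

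Transcripts of the family are short, and length went with the fold change to a small degree. Across the 81 members Pearson's r of the log2 fold change was -0.326 with coding length (Spearman's rho -0.296) and -0.187 with transcript length (rho -0.23), as a description over genes that share libraries. Other genes of at least 50 CPM with transcripts under 600 bases had a median log2 fold change of 0.02 (n = 48), against 0.16 for the 30 members in that length class. From 600 to 1000 bases the medians were 0.01 for 185 other genes and 0.13 for 32 members, and from 1000 to 2000 bases -0.02 for 877 other genes and 0.10 for 16 members. In each of these length classes the members had the higher median, but the family was selected on these same fold changes. Calls among the other genes also went with length. Under 600 bases 22.9% of them were called higher and 10.4% lower, and from 600 to 1000 bases 18.9% and 11.4%. From 1000 to 2000 bases 10.8% were called higher and 17.3% lower, and from 2000 to 4000 bases 8.15% and 23.6%. The part of length in the fold changes of the members was not tested.

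The family has many near-identical pseudogene copies, and reads that match several places can be lost or shared in counting. Over the members a median of 52.1% of 76-base stretches occurred in no other annotated transcript, from 1.48% for Rps27 to 100% for genes such as Rps3 and Rpl39l. Of 36 members with less than 50 percent unique stretches 29 rose (median log2 fold change 0.16), and of the other 45 members 29 rose and 1 fell (median 0.14). Of 13 members with at least 90 percent unique stretches 5 rose, 1 fell and 7 were not called, with a median of 0.07; these include 4 of the 5 paralogs. The part of shared reads in the fold changes was not tested.

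A TOP tract was looked for at the annotated starts of the 61 members found among the RefSeq promoters of 27025 genes. A C at the first base followed by 4 or more pyrimidines stood at an annotated start of 13 members (21.3%), against 3.01% of all genes. Within 10 bases before to 20 bases after the start, a C with 5 or more pyrimidines was present in 35 members (57.4%) and 24.9% of all genes. Annotated starts can lie some bases from the main start in these cells, and the tract is lost from view when they do. Of the 13 members with the tract at the start 12 rose and Rps15a was not called (median log2 fold change 0.19), and of the 48 without it 32 rose, 1 fell and 15 were not called (median 0.13). Rpl35, Rpl14, Rpl28, Rps18 and Rps6, printed above, are among the 12.

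Short motifs were counted in the same promoters as letters, with no claim of binding. CTTTCC lay between -30 and +30 on the transcribed strand in 12 members (19.7%) and 3.4% of genes, or 23% and 6.44% on both strands. CTCTTT did so in 11 members (18%) and 2.68% of genes, or 19.7% and 5.32% on both strands. CCGGAAGT, the core bound by ETS factors such as GABP, lay between -250 and +50 on either strand in 10 members (16.4%) and 4.31% of genes. AAGATGGC, the core bound by YY1, did so in 6 members (9.84%) and 3.19% of genes. TATAAA lay between -50 and the start on either strand in 1 member (1.64%) and 4.17% of genes. CTTTCC and CTCTTT are themselves pyrimidine runs and overlap the TOP tract and each other.

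Most ribosomal protein genes that are not members rose. Rps27l was left out by name, and the others do not match the naming pattern. Of 5 tested, 4 did so: Rpsa (log2 fold change 0.22), Rps27l (0.29), Rpl36al (0.17) and Fau (0.11), with a median of 0.17 over the 5. Over all tested genes 11.6% were called higher. Here and in the paragraphs that follow, 16 genes outside the family are named as called. With the fibroblast score in the model 11 of these 16 were no longer called, all with the same direction. Over all tested genes 1.53% were called higher and 1.01% lower in that model. Fau lost its call without p57 KO library 2 (adjusted p = 0.0893 in edgeR), control library 1 (0.0538) or control library 3 (0.0754), and Rpl36al without control library 2 (0.0719) or control library 3 (0.0556). Rps27l, a p53 target in human cells, had 107.5 ± 2.98 CPM in p57 KO and 87.9 ± 2.96 CPM in control (SD, n = 3 each), with an edgeR adjusted p of 1.10e-05. Its count was 53.6% ± 3.09 of that of Rps27 in p57 KO and 50.2% ± 1.7 in control (SD, n = 3 each), and the groups overlapped.

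Other translation genes, listed as TOP genes without a scan of their own starts, were also looked at. Of 22 translation factors and related genes 11 rose (50%) and 0 fell in edgeR, beside 11.6% each way over all tested genes. The median log2 fold change was 0.06. The list was chosen with earlier results of these data known, so that nothing further is read from its share. Tpt1, which encodes the translationally controlled tumour protein, had 489.8 ± 12.6 CPM in p57 KO and 418.3 ± 14 CPM in control (SD, n = 3 each), a log2 fold change of 0.23 (adjusted p = 8.9e-06 in edgeR). Eif3a, a subunit of initiation factor eIF3, had 0.16 and Eef1b2, an exchange factor for elongation factor 1, 0.14. The most abundant of the list were not called: Eef1a1 had 0.02 (adjusted p = 0.607 in edgeR) and Eef2 0.05 (adjusted p = 0.157 in edgeR). Rack1, a protein bound to the small subunit, had 0.0083 and was not called either.

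Genes that build ribosomes were called no more often than tested genes as a whole. Of 54 ribosome biogenesis genes 4 rose (7.41%) and 6 fell (11.1%), beside 11.6% each way over all tested genes, and the median log2 fold change was -0.02. Utp20 (0.17) and Mdn1 (0.19, adjusted p = 0.0641 in limma-voom) rose, while Tsr1, which acts in small-subunit maturation, fell by 0.13 on the log2 scale (adjusted p = 0.00357 in edgeR). The protein genes of the mitochondrial ribosome, which are encoded in the nucleus, had a median of -0.0049, and 3 of 78 rose and 3 fell (3.85% each way), below the same background. Mrpl38 had 0.11 (0.10 without control library 1, adjusted p = 0.0527 in edgeR), Mrpl17 -0.18 and Mrpl37 -0.13 on the log2 scale.

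Among 16 genes of mTORC1 and of TOP control 3 rose (18.8%) and 1 fell (6.25%), beside the background of 11.6% each way, and with so few genes nothing is read from these shares. Larp1, the gene of the TOP-binding protein, had 479.2 ± 13.4 CPM in p57 KO and 487.8 ± 10.9 CPM in control (SD, n = 3 each) and was not called (log2 fold change -0.03, adjusted p = 0.555 in edgeR). Mtor had 0.04 and was not called. The 2 large differences were in inhibitors of mTORC1 signalling that stress induces. Ddit4 had 105.1 ± 2.8 CPM in p57 KO and 50.2 ± 1.29 CPM in control (SD, n = 3 each), a log2 fold change of 1.07 (adjusted p = 8.58e-14 in edgeR), and Sesn2 had 160.7 ± 3.55 CPM in p57 KO and 101.7 ± 1.89 CPM in control (SD, n = 3 each), a log2 fold change of 0.66 (adjusted p = 7.41e-12 in edgeR). Eif4ebp2, which encodes a repressor of cap-dependent translation, fell by 0.17 on the log2 scale (adjusted p = 0.000124 in edgeR). RNA levels do not show the activity of mTORC1 or the rate of translation, neither of which was measured.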

How the data were processed

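The deposited table holds raw counts per gene for 6 libraries, not normalized by the authors. Per the submitters' processing notes, reads were processed with HISAT2 2.2.1, HTSeq 2.0.2, cutadapt 3.4 and bcl2fastq 2.20, on mm10. The annotation, the strand setting and the treatment of reads with several matches were not given in the sources used here.

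Of 14814 genes left by edgeR's filterByExpr, each was tested with the quasi-likelihood test of edgeR 4.0.16 (with R 4.3.3 and limma 3.58.1; TMM, group as the only term, robust dispersions), with Benjamini-Hochberg adjustment over all of them. A gene was called at an adjusted p under 0.05. The test was checked on simulated data. Fold changes are log2, p57 KO over control. Replicate pairs differed by more than sampling noise (chi-square per degree of freedom 1.69 to 5.97), so none was a duplicate. Counting error is small at a median of 6915 counts per member and library.

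Positions, transcript lengths and coding sequences came from GENCODE release 21 (GRCm38), in which 32235 of 32285 gene identifiers were found, with 1 principal transcript per gene. Promoters came from RefSeq (GRCm38.p6).

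The members and the lists of other genes were chosen with earlier results of these data known. Named singly were Rps6, the genes of the functional groups, paralogs with their parents and the extremes of level, fold change and dispersion. Ribosomal protein genes that are not members and up to 3 genes of smallest p from each other list were also named. Members and list genes named beyond this rule were chosen after their values were seen. A few genes enter the fits and counts but are not reported singly here. Alternatives were RLE, upper quartile, total-count and family-based scaling, TMM factors without the family, DESeq2 1.42.0, limma-voom, filters, a replicate block, the fibroblast score as a covariate, a test against a fold of 1.1 and each library left out.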

Additional observations from a re-analysis of the deposited data

How the results depend on the processing

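With 1 library left out, 54 to 60 members were called higher and 1 to 1 lower (Rpl10l), with a median log2 fold change of 0.124 to 0.152. The share difference was 0.285 to 0.323 percentage points, all genes called were 2358 to 4029, and list genes called were 18 to 38, against 35 with all libraries (23 without p57 KO replicate 2, 21 without control replicate 1 and 18 without control replicate 3). Of the 59 called members 52 were called in all 6 of these fits, and among those that lost their call in at least 1 were Rpl27a, Rps26, Rplp2, Rpl7, Rpl10 and Rps27a. Upper-quartile scaling gave a median of 0.172, and 2003 genes higher and 1291 lower against 1725 and 1725. Scaled to the summed ribosomal protein counts, the median was 0.0178, 13 members were higher and 14 lower, 7099 genes and 106 list genes were called. With the fibroblast score, 27 members were higher and 0 lower, 377 genes and 5 list genes were called. Tested against a fold of 1.1, 13 members were higher and 0 lower, and 1194 genes and 5 list genes were called; fewer pass because the test asks for more than no change. The counts and medians under RLE, total-count scaling, TMM without the family, DESeq2, limma-voom, no filter and the stricter filter (at least 1 CPM in 3 libraries) stayed within 1.5 times or 1 SD. The share difference was 0.311 points of tested counts and 0.323 points without mitochondrially encoded genes. Correlations of same-numbered libraries, after the group means were taken out, were 0.191, 0.025 and -0.102 over 14814 genes. With 3 libraries per group they cannot settle whether the replicate numbers pair the samples. The fit with the replicate block called 61 members higher and 1 lower, with a median of 0.151, and 3706 genes against 3450 with the group alone. Signs turned when scaled to the family, by construction of that scale, for Rpl10a (-0.13), Rpl3 (-0.12), Rps3a1 (-0.11), Rps15a (-0.11), Rpl3l (-0.10), Rpl41 (-0.0978), Rpl4 (-0.0973), Rps13 (-0.0957), Rps3 (-0.0946), Rplp1 (-0.0886), Rpl39l (-0.0811), Rpl5 (-0.0721), Rpl37a (-0.0496), Rpl7 (-0.039), Rps26 (-0.0366), Rpl24 (-0.0266), Fau (-0.0219), Rps2 (-0.0214), Mrpl38 (-0.0212) and Rpl10 (-0.0038). Uncalled members near zero also turned: Rpl3l to -0.0789 with the fibroblast score, and to -0.0039 and -0.01 without control replicates 1 and 3 (-0.01 to 0.0928 over the fits without 1 library); Rpl10a to -0.0077 without control replicate 1 and -0.0027 without control replicate 2; Rps15a to -0.0136 without control replicate 3 (-0.0136 to 0.0589 over these fits). Limits are the 3 libraries per group, marker levels of fibroblasts and spermatogonia that differ between the groups, and shared reads, none of which the deposited counts can separate from the group.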

Other observations

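The 81 genes are spread over 19 chromosomes, with 14 on chromosome 7 and 8 on chromosome 17. The 5 rows of ribosomal protein pseudogenes in the count table held 6 to 17 counts together in a p57 KO library and 13 to 23 in a control library. The fold change of the members had no more than a weak relation to the GC content of the transcript (Pearson's r 0.0879 and Spearman's rho 0.0736 over 81 genes, which share libraries).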
